A study of Homo sapiens with 9 samples.

Results

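Oxidative phosphorylation was followed through the genes for the subunits of its 5 complexes. The RNA was labelled as that of a breast cancer line after transfection with siRNAs against the pseudogene transcript WFDC21P. Members were taken by symbol: protein-coding genes starting with NDUFA, NDUFB, NDUFC, NDUFS, NDUFV, UQCR, COX4 to COX8 or ATP5, together with SDHA to SDHD, CYC1 and the 13 mitochondrially encoded MT- genes, with the NDUFAF assembly factors left out. Of 26636 genes listed in every library, 101 were members. The nuclear genome encoded 88 of them, with 39 in complex I, 4 in complex II, 10 in complex III, 15 in complex IV and 20 in complex V. The rule uses symbols and no measured value, though it was set with earlier results of these data known.

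The libraries came from wild-type cells that the labels name BT549, an established line from a human breast tumour of the triple-negative kind, mesenchymal in character. They were harvested 48 h after transfection with siWFDC21P-1, siWFDC21P-2 or the control siRNA siNC, with 3 libraries in each group. All 3 groups received the same amount of siRNA (5 µl of a 10 µM stock), and no untransfected cells were among them. The labels do not say whether the libraries of a group came from separate cultures, so the spread behind the p-values may be technical.

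The libraries fell into 3 expression sets that do not follow the siRNA groups, and each knockdown library was set against the siNC library of its own set. Set 1 held siWFDC21P-1 replicates 1 and 2 with siNC replicate 1, set 2 held siWFDC21P-1 replicate 3 with siNC replicate 2, and set 3 held siWFDC21P-2 replicates 1 to 3 with siNC replicate 3. No set had more than 1 siNC library, so the p-values hold no spread between controls of the same set. The correlation of log2(FPKM + 1) was 0.925 to 0.985 within a set and 0.646 to 0.734 between sets. The mesenchymal marker VIM had 162 to 310.4 FPKM in set 3, 38.5 to 41.0 FPKM in set 1 and 0.517 to 0.699 FPKM in set 2, and CDH2 had 14.7 to 18.1 FPKM in set 3. Set 2 carried the epithelial markers EPCAM (208.5 to 228 FPKM) and CDH1 (42.7 to 59.6 FPKM). Every library of set 3 was above the other sets for 4 of 6 mesenchymal markers, and every library of set 2 for 5 of 6 epithelial markers. Among the exceptions, mesenchymal FN1 had 5.91 to 11.2 FPKM in set 2 and 4.56 to 9.13 FPKM in set 3, and epithelial KRT8 had 93.4 to 232 FPKM in set 1, which lacked EPCAM (at most 0.0412 FPKM). Sets 1 and 2 lacked CDH2, at most 0.00698 FPKM, against their BT549 label. WFDC21P itself had 4.13, 3.32 and 2.12 FPKM in the siWFDC21P-2 libraries, against 6.87 FPKM in siNC replicate 3, and 0.0629 and 0.767 FPKM in siWFDC21P-1 replicates 1 and 2, against 3.08 FPKM in siNC replicate 1. In set 2 it was near 0 in both libraries, with 7 reads in the library labelled siWFDC21P-1 replicate 3 and 4 reads in the library labelled siNC replicate 2, so the target gives no check of these labels. The term knockdown library follows the label throughout and includes siWFDC21P-1 replicate 3, where WFDC21P was not lower than in its control. Depth was 28.1 to 29.7 M reads in sets 1 and 2 and 16.3 to 17.4 M reads in set 3.

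In oxidative phosphorylation, electrons from NADH enter at complex I (NADH dehydrogenase) and those from succinate at complex II (succinate dehydrogenase). They pass through ubiquinone to complex III (the cytochrome bc1 complex), cytochrome c and complex IV (cytochrome c oxidase), where oxygen is reduced, and the proton gradient built along the way drives ATP synthesis at complex V. Complexes I, III, IV and V are assembled from products of both genomes, while complex II is wholly nuclear-encoded. Mitochondrial genes are transcribed as long transcripts from both strands and cut into shorter RNAs, whereas each nuclear subunit gene has a promoter of its own.

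Of the 101 members, 87 had a mean of at least 1 FPKM (fragments per kilobase of exon, per unit of depth) over the 9 libraries and were tested, 74 nuclear and all 13 mitochondrial. No member reached an adjusted p of 0.05 for either siRNA in limma, where 3 of 13014 genes (0.0231%) passed for siWFDC21P-1 and 0 (0.0%) for siWFDC21P-2. Without siWFDC21P-2 replicate 1, which enters the estimate of the spread, 153 genes passed for siWFDC21P-1, again with 0 members. With limma-voom on the reads recovered from the FPKM values 0 members passed as well. At an unadjusted p under 0.05, 7 members were higher and 0 lower with siWFDC21P-1, where 13.8% of all tested genes passed that limit, 8.69% higher and 5.06% lower. With siWFDC21P-2, 5 members were higher (NDUFA8, NDUFB6, NDUFA3, ATP5MG and ATP5PB) and 0 lower, where 5.24% of all tested genes passed, 2.89% higher and 2.35% lower. Of 87 tested members, 7 is close to the share of all tested genes on the higher side.

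With siWFDC21P-2 the nuclear and the mitochondrial members lay above the control more often than genes at large. The median fitted log2 fold change was 0.28 over the 74 nuclear members and 0.32 over the 13 mitochondrial members, against 0.02 over all tested genes. In single libraries the median log2 difference of the nuclear members was 0.08, 0.39 and 0.40 in siWFDC21P-2 replicates 1, 2 and 3, against siNC replicate 3. The number of nuclear members above that control was 51, 65 and 67 of 74 in the same libraries, where 47.1%, 53.2% and 53.8% of all tested genes were above it. For the mitochondrial members it was 9, 10 and 9 of 13, with median log2 differences of 0.03, 0.53 and 0.35. Replicates 2 and 3 also stood apart over the tested genes that are not members. There the correlation across genes with siNC replicate 3 was 0.984 for replicate 1, 0.925 for replicate 2 and 0.932 for replicate 3, and that between replicates 2 and 3 was 0.985. The part of this in the members' difference was not tested. In all 3 libraries 50 of 87 members were higher than the control and 3 were lower (COX7A2L, MT-ND4L and MT-ND5; 1 was lower when the libraries were rescaled without the MT- genes), where 26.9% of all tested genes were higher and 26.0% lower. All 3 libraries share 1 control, siNC replicate 3, so a shift of that library and a shift of the 3 knockdown libraries cannot be told apart.

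With siWFDC21P-1 the members' medians lay near that of all genes. The median fitted log2 fold change was 0.01 over nuclear members and 0.02 over mitochondrial members, against 0.03 over all tested genes. The median log2 difference of the nuclear members from the siNC of their set was 0.19, 0.06 and -0.09 in replicates 1, 2 and 3. Over all tested genes it was 0, 0.05 and 0.03 in the same libraries. Replicate 1 of set 1 thus lay above genes at large and replicate 3, the only knockdown library of set 2, below them, with replicate 2 close to them. Above the control were 58, 46 and 26 of 74, where 49.4%, 55.0% and 53.9% of all tested genes were. In all 3 libraries 21 members were higher and 12 lower, where 27.9% of all tested genes were higher and 20.7% lower. With median-of-ratios scaling in place of FPKM this split turned, to 13 higher and 19 lower. Without both libraries of set 2, 42 members were higher and 16 lower in both remaining libraries, where 39.3% and 32.8% of all tested genes were.

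**Figure D1:**
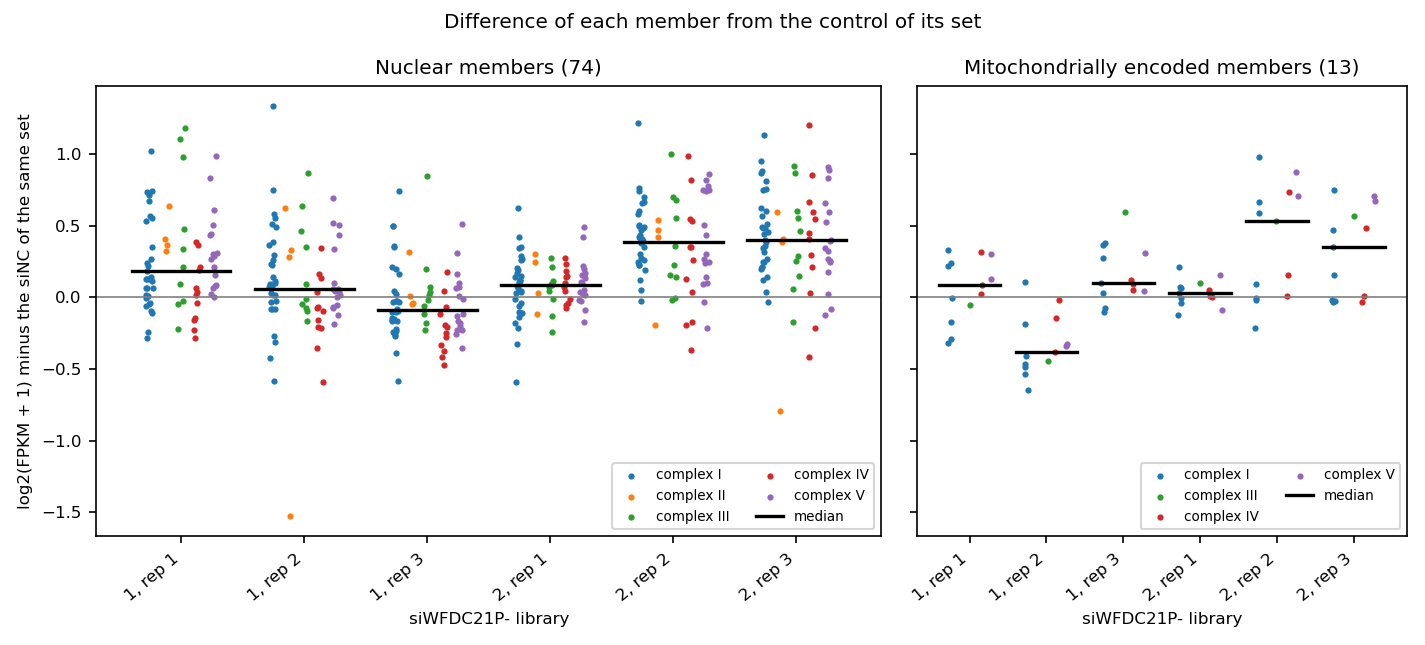
Each point is a tested member in 1 knockdown library, plotted as log2(FPKM + 1) minus the siNC library of the same set (vertical axis), coloured by complex, with the nuclear members on the left and the mitochondrially encoded members on the right; black lines are medians over members and the grey line marks the control. The nuclear medians are 0.19, 0.06 and -0.09 in siWFDC21P-1 replicates 1 to 3 and 0.08, 0.39 and 0.40 in siWFDC21P-2 replicates 1 to 3.

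With siWFDC21P-2 the nuclear medians of the complexes lay close together. The median fitted log2 fold change of the nuclear members was 0.28 for complex I, 0.28 for complex II, 0.25 for complex III, 0.27 for complex IV and 0.29 for complex V. The mitochondrial medians lay further apart, at 0.15 (I, 7 genes), 0.40 (III, 1 gene), 0.04 (IV, 3 genes) and 0.50 (V, 2 genes). The counts that follow are of nuclear members. Higher than the control in all 3 libraries were 18 of 31 tested members of complex I, 2 of 4 of complex II, 5 of 10 of complex III, 6 of 12 of complex IV and 12 of 17 of complex V. Of all tested genes 26.9% were higher in all 3 and 26.0% lower, against the same single control. Among tested nuclear members COX7A2L alone was lower in all 3, a factor that joins complexes III and IV into supercomplexes. It had 20.5, 18.3 and 15.6 FPKM in the siWFDC21P-2 libraries, against 21.2 FPKM in siNC replicate 3.

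With siWFDC21P-1 the nuclear medians of the complexes were -0.00 (I), 0.26 (II), 0.10 (III), -0.13 (IV) and 0.09 (V) on the log2 scale. Complex V had 6 of 17 tested members higher and 0 lower in all 3 libraries, and complex IV had 1 of 12 higher and 3 lower, where 27.9% of all tested genes were higher and 20.7% lower. The differences between complexes were not tested.

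Complex I takes up electrons from NADH through its peripheral arm and pumps protons through its membrane arm. NDUFA8 (chr9:122144058-122159819, minus strand), an accessory subunit, was above its control by a similar margin in every knockdown library. It had 85.5 and 78.1 FPKM in siWFDC21P-1 replicates 1 and 2, against 51.8 FPKM in siNC replicate 1, and 57.7 FPKM in siWFDC21P-1 replicate 3, against 40.5 FPKM in siNC replicate 2. In set 3 it had 47.4, 52.3 and 52.2 FPKM in the siWFDC21P-2 libraries, against 30.5 FPKM in siNC replicate 3. Its 6 log2 differences thus ran from 0.50 to 0.76, with siWFDC21P-2 replicate 1 at 0.62. The fitted fold changes were 0.59 ± 0.15 for siWFDC21P-1 and 0.71 ± 0.19 for siWFDC21P-2 (log2, SE; limma adjusted p = 0.191 and 0.756).

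NDUFB6, an accessory subunit of the membrane arm, had 24.9, 46.2 and 43.6 FPKM in the siWFDC21P-2 libraries, against 19.4 FPKM in siNC replicate 3. Replicate 1 stood between the control and the other two libraries. With siWFDC21P-1 it had 36.0, 34.0 and 17.1 FPKM in replicates 1 to 3, against 23.9 FPKM in the siNC library of set 1 and 14.7 FPKM in that of set 2. For siWFDC21P-1 the limma unadjusted p of NDUFB6 was 0.194, while those of NDUFA8, NDUFS4, NDUFA5 and NDUFB5 were under 0.05. NDUFS4, an accessory subunit needed to attach the NADH-oxidizing module, had 31.2, 31.3 and 18.8 FPKM in the siWFDC21P-1 libraries. In siNC replicates 1 and 2 NDUFS4 had 18.2 and 14.5 FPKM. NDUFA5 had a log2 fold change of 0.52 ± 0.17 and NDUFB5 one of 0.51 ± 0.17 (SE; adjusted p = 0.261 and 0.266, limma).

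A pair of complex I members lay below their controls with siWFDC21P-1 and above theirs with siWFDC21P-2. NDUFS1, the largest core subunit and a carrier of iron-sulfur clusters, had 12.4, 11.8 and 9.24 FPKM in the siWFDC21P-1 libraries, against 14.9 and 10.4 FPKM in siNC replicates 1 and 2. With siWFDC21P-2 it had 7.98, 10.7 and 8.84 FPKM, against 7.28 FPKM in siNC replicate 3. NDUFB11, an X-linked accessory subunit, had 89.1, 102 and 90.9 FPKM with siWFDC21P-1, against 109 and 107 FPKM in siNC replicates 1 and 2. In set 3, siWFDC21P-2 gave 25.5, 32.1 and 33.7 FPKM, against 24.4 FPKM in siNC replicate 3. The difference between the siRNAs had an adjusted p of 0.83 for both genes (limma).

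Complex II oxidizes succinate, with SDHA and SDHB as the catalytic subunits and SDHC and SDHD as the membrane anchor. SDHA had 82.7, 75.8 and 49.4 FPKM in the siWFDC21P-1 libraries, against 62.3 and 49.0 FPKM in siNC replicates 1 and 2. With siWFDC21P-2 it had 18.0, 23.9 and 23.7 FPKM, against 17.6 FPKM in siNC replicate 3. It was above its control in all 6 libraries, though by 0.01 and 0.03 (log2) in siWFDC21P-1 replicate 3 and siWFDC21P-2 replicate 1. SDHB had 41.7, 46.9 and 51.1 FPKM with siWFDC21P-2, against 33.6 FPKM in siNC replicate 3. SDHC had 11.8, 11.9 and 11.4 FPKM with siWFDC21P-1, against 9.27 and 9.01 FPKM in siNC replicates 1 and 2. SDHD varied most: it had 14.9 FPKM in siWFDC21P-1 replicate 1 and 3.28 FPKM in replicate 2, against 11.3 FPKM in the siNC library of the same set, and its fold changes had SEs of 0.54 and 0.68 (log2). Other annotated genes cover 47.7% of its coding exons, and its values did not come out as whole reads.

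Complex III hands electrons from ubiquinol to cytochrome c. UQCRC2, a core subunit facing the matrix, had 37.3 and 22.3 FPKM in siWFDC21P-1 replicates 1 and 2, against 15.8 FPKM in siNC replicate 1. In set 2 it had 30.8 FPKM in siWFDC21P-1 replicate 3, against 16.7 FPKM in siNC replicate 2. In set 3 its level was higher throughout and on both sides of the control, at 56.7, 52.7 and 47.4 FPKM with siWFDC21P-2, against 53.5 FPKM in siNC replicate 3. The fitted log2 fold change was 0.83 ± 0.23 with siWFDC21P-1 (SE; adjusted p = 0.208, limma) and -0.04 ± 0.29 with siWFDC21P-2 (adjusted p = 0.987), the second of which was 0.003 when the libraries were rescaled without the MT- genes. Their difference had an unadjusted p of 0.0491 and an adjusted p of 0.83, the single member under 0.05 before adjustment.

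UQCRFS1, the Rieske iron-sulfur protein, had 65.6, 42.2 and 105 FPKM with siWFDC21P-1, against 32.8 and 99.8 FPKM in siNC replicates 1 and 2. CYC1, cytochrome c1, had 228 and 194 FPKM in siWFDC21P-1 replicates 1 and 2, against 106 FPKM in siNC replicate 1, but 136 FPKM in replicate 3, against 142 FPKM in siNC replicate 2. UQCRB, which lies at the ubiquinone site, had 6.85, 7.15 and 3.97 FPKM with siWFDC21P-1, against 8.15 and 4.83 FPKM in siNC replicates 1 and 2. UQCR10, a small subunit beside cytochrome c1, had 37.9 FPKM in siWFDC21P-2 replicate 1 and 74.1 and 70.1 FPKM in replicates 2 and 3, against 36.6 FPKM in siNC replicate 3. Replicates 2 and 3 were far above the control, whereas replicate 1 was close to it.

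Complex IV reduces oxygen, with its catalytic core made in the mitochondrion and its other subunits of nuclear origin. COX4I1, the common form of a regulatory subunit, had 73.7, 72.3 and 71.4 FPKM with siWFDC21P-1, against 75.7 and 81.8 FPKM in siNC replicates 1 and 2. In set 3, siWFDC21P-2 gave 62.4, 63.6 and 65.3 FPKM, against 53.1 FPKM in siNC replicate 3. COX6B1, which lies on the intermembrane side, had 108, 107 and 87.6 FPKM with siWFDC21P-1, against 120.1 and 111 FPKM in siNC replicates 1 and 2. With siWFDC21P-2 it had 59.9, 81.8 and 84.7 FPKM, against 55.8 FPKM in siNC replicate 3. COX6C had 24.4, 17.8 and 45.8 FPKM with siWFDC21P-1, against 27.3 and 59.8 FPKM in siNC replicates 1 and 2. COX8A had 8.28, 14.1 and 16.6 FPKM and COX7B had 11.1, 19.3 and 19.8 FPKM with siWFDC21P-2, against 6.66 and 10.5 FPKM in siNC replicate 3. In both genes replicate 1 was nearest to the control.

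Complex V, the ATP synthase, is made of a catalytic head, a rotor with a ring of c subunits and a peripheral stalk that holds the head in place. A pair of peripheral stalk genes, ATP5PB (subunit b) and ATP5PF (subunit F6), were above their control in all 6 knockdown libraries. ATP5PB (chr1:111448864-111462773, plus strand) had 85.5 and 69.5 FPKM in siWFDC21P-1 replicates 1 and 2, against 42.7 FPKM in siNC replicate 1, and 83.6 FPKM in replicate 3, against 58.3 FPKM in siNC replicate 2. In set 3, siWFDC21P-2 gave 61.0, 76.9 and 69.1 FPKM, against 45.4 FPKM in siNC replicate 3. Its log2 fold changes were 0.70 ± 0.19 and 0.59 ± 0.24 for siWFDC21P-1 and siWFDC21P-2 (SE; limma adjusted p = 0.197 and 0.756). ATP5PF had 20.7, 19.2 and 17.2 FPKM with siWFDC21P-1, against 15.0 and 13.6 FPKM in siNC replicates 1 and 2. With siWFDC21P-2 it had 10.9, 18.5 and 19.5 FPKM, against 10.1 FPKM in siNC replicate 3.

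The c ring has 3 genes for 1 mature protein. ATP5MC1 had 12.0, 20.4 and 21.1 FPKM and ATP5MC3 had 10.7, 18.5 and 19.7 FPKM with siWFDC21P-2, against 10.8 and 10.6 FPKM in siNC replicate 3. ATP5MC2 had 22.5, 21.6 and 20.9 FPKM in the same libraries, against 22.2 FPKM. The first pair were thus higher in replicates 2 and 3, and the third gene was not. ATP5MG (subunit g of the membrane part) had 9.26, 11.2 and 10.6 FPKM with siWFDC21P-2, against 6.31 FPKM in siNC replicate 3.

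**Figure D2:**
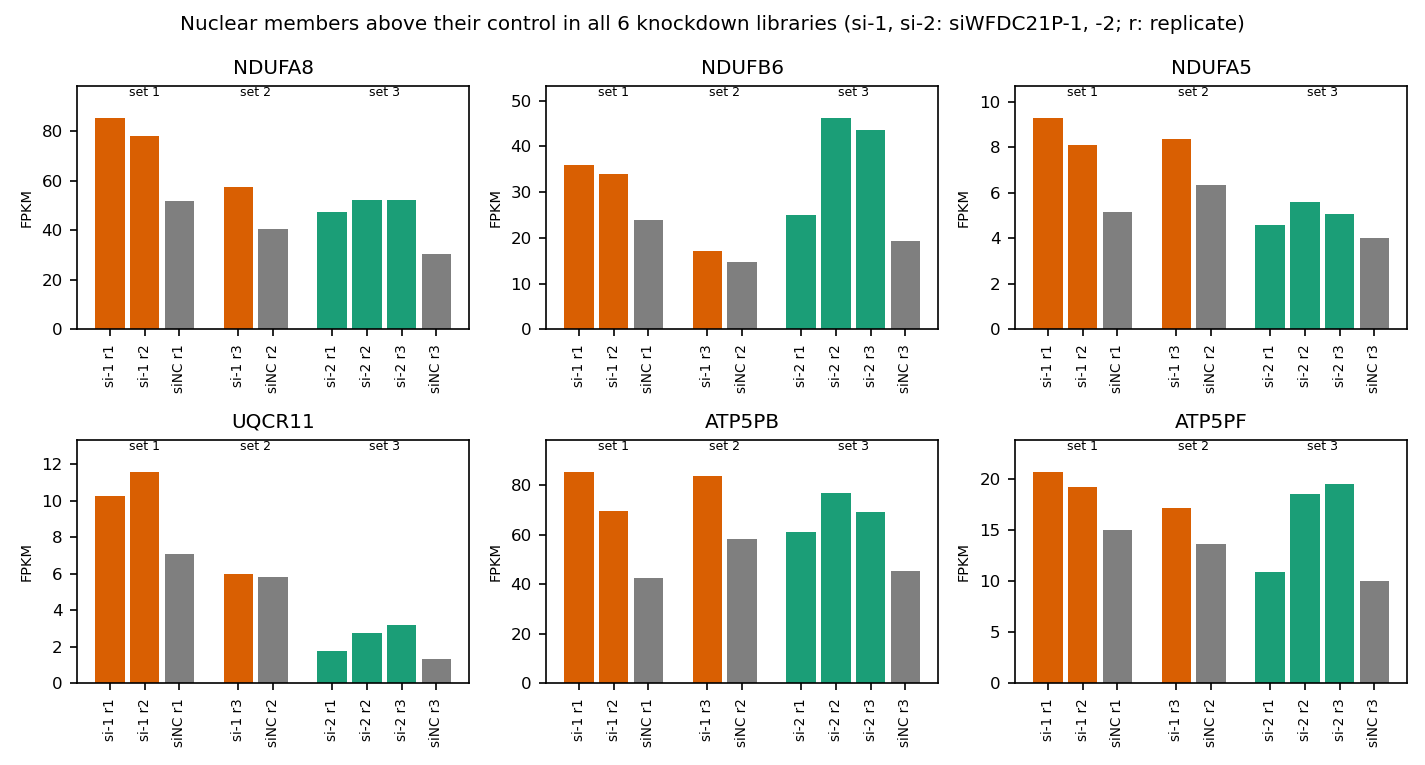
Bars give the FPKM of 6 nuclear members in each library, grouped by expression set, with siWFDC21P-1 (si-1, orange) and siWFDC21P-2 (si-2, green) left of the siNC library (grey) of the same set. Every knockdown bar is above the grey bar of its set: ATP5PB has 85.5 and 69.5 FPKM, against 42.7 FPKM, in set 1, and NDUFA8 has 47.4, 52.3 and 52.2 FPKM, against 30.5 FPKM, in set 3.

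In all 6 knockdown libraries 13 of 87 members were above the siNC of their set and 0 below it, where 10.8% of all tested genes were above and 7.92% below. All 13 were nuclear, among them NDUFA8, NDUFB6, NDUFA5, NDUFB5 and NDUFV1 of complex I, SDHA of complex II, UQCR11 of complex III, and ATP5PB, ATP5PF, ATP5F1A, ATP5MJ and ATP5IF1 of complex V. The mean log2 difference over the 6 libraries was lowest for ATP5IF1, the inhibitor of the ATP synthase, at 0.11, and was 0.66 for NDUFA8, NDUFB6 and ATP5PB. No nuclear member of complex IV was among them.

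Promoters of respiratory genes are known to carry sites for the nuclear factors NRF1 and GABP and for YY1, so the 250 bases before the RefSeq start (GRCh38.p14) were searched for GCGCATGC (NRF1), CCGGAAGT (the ETS site that GABP binds) and AAGATGGC (YY1), on both strands. Of 88 nuclear members 68 had a promoter in the table. The NRF1 letters were in 12 of 68 (17.6%), where 2.81% of all promoters held them, and the ETS letters in 10 (14.7%), against 3.64%. The YY1 letters were in 1 (1.47%), against 1.37%. All promoters here are 27305, not selected for coding or expressed genes and not matched for GC content. The shares thus come from unlike sets, and the difference was not tested. Of the 11 matched members above their control in all 6 libraries, 1 held the NRF1, 1 the ETS and 1 the YY1 letters. ATP5PF and UQCR11 are shown as the members of this kind with a match, NDUFA8 as one with no match, and COX5B as a member with both the NRF1 and the ETS letters. Matches are in capitals. In ATP5PF the NRF1 letters start 120 bases and the YY1 letters 57 bases before the transcription start. In UQCR11 the ETS letters start 117 bases before it. In COX5B the NRF1 letters start 136 bases and the ETS letters 37 bases before it, and the NDUFA8 window holds none of the 3.
ATP5PF, chr21:25735055-25735304, minus strand: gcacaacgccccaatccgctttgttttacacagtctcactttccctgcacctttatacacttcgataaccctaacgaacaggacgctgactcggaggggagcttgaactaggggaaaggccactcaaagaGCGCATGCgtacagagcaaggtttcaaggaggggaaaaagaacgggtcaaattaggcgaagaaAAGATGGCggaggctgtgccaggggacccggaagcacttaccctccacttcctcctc
UQCR11, chr19:1605463-1605712, minus strand: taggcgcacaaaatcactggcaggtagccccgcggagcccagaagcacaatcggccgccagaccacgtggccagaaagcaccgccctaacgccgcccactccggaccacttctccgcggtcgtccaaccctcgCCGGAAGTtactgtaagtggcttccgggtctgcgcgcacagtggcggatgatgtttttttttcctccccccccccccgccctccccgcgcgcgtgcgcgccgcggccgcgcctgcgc
NDUFA8, chr9:122159780-122160029, minus strand: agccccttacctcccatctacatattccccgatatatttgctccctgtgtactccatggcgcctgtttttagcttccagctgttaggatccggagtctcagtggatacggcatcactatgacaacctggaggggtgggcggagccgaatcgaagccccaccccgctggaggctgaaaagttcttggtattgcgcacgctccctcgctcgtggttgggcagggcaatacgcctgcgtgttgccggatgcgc
COX5B, chr2:97645812-97646061, plus strand: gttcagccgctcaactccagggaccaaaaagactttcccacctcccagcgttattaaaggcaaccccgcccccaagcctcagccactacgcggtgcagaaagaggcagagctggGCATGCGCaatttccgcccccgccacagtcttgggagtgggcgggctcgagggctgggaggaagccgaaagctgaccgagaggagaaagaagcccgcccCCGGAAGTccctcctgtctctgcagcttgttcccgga

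The 4 sequences run 5′ to 3′ on the strand of the gene. COX5B, a nuclear subunit of complex IV, had 92.2, 86.3 and 57.2 FPKM with siWFDC21P-1, against 91.0 and 69.4 FPKM in siNC replicates 1 and 2. In set 3, siWFDC21P-2 gave 32.0, 34.2 and 38.7 FPKM, against 33.3 FPKM in siNC replicate 3. It was on both sides of its control with either siRNA. A match in these letters is a description of the window and not a bound site.

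The 13 mitochondrial genes code for 7 subunits of complex I, 1 of complex III, 3 of complex IV and 2 of complex V, and they took 15.0% to 22.3% of the summed FPKM. Their share was 19.6%, 16.0% and 22.3% in siWFDC21P-1 replicates 1 to 3, against 19.5% and 19.8% in siNC replicates 1 and 2. It was 15.3%, 18.8% and 17.5% in siWFDC21P-2 replicates 1 to 3, against 15.0% in siNC replicate 3. The 88 nuclear members together took 1.64%, 1.53% and 1.29% with siWFDC21P-1, against 1.42% and 1.37% in siNC replicates 1 and 2. With siWFDC21P-2 they took 0.866%, 1.07% and 1.11%, against 0.817% in siNC replicate 3. The share of the mitochondrial genes moved both ways with siWFDC21P-1 and was above the control in the 3 siWFDC21P-2 libraries.

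With siWFDC21P-2 the mitochondrial genes did not move as a block. In replicates 2 and 3, MT-ND2 had 3233 and 2751 FPKM, and in replicate 1 it had 1720 FPKM, against 1639 FPKM in siNC replicate 3. MT-ATP6, the proton channel subunit of complex V, had 2313, 3814 and 3305 FPKM in replicates 1 to 3, against 2077 FPKM. MT-CO3 had 5267, 8450 and 7102 FPKM, against 5090 FPKM. These 3 genes were highest in replicate 2, with replicate 1 close to the control.

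MT-ND1 had 1693, 2438 and 2245 FPKM with siWFDC21P-2, against 1622 FPKM in siNC replicate 3, and MT-CYB, cytochrome b of complex III, had 3307, 4471 and 4561 FPKM, against 3086 FPKM. MT-ND3 had 1569, 2558 and 2062 FPKM, against 1616 FPKM. MT-ATP8 had 21.4, 37.8 and 38.0 FPKM, against 22.8 FPKM. In these 4 genes replicate 1 differed from the control by -0.09 to 0.10 on the log2 scale, and the other two libraries were above both.

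The remaining 6 mitochondrial genes had log2 differences of -0.21 to 0.21 from siNC replicate 3 in the siWFDC21P-2 libraries. MT-CO2 was the most even, at 8191, 8226 and 8223 FPKM with siWFDC21P-2, against 8157 FPKM. MT-CO1, the catalytic subunit of complex IV, had 9493, 10573 and 9253 FPKM, against 9476 FPKM. MT-ND4 had 4692, 4527 and 4532 FPKM, against 4595 FPKM, and MT-ND5 had 1423, 1421 and 1402 FPKM, against 1427 FPKM. MT-ND4L had 2170, 2039 and 2308 FPKM, against 2365 FPKM. MT-ND6, the only one of the 13 encoded on the other strand, had 998, 921 and 964 FPKM, against 864 FPKM. The division into 7 and 6 genes was made after their values had been seen and cuts through complexes I and IV.

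With siWFDC21P-1 the mitochondrial genes moved in different ways in the 3 libraries. In replicate 2 the median log2 difference from siNC replicate 1 was -0.38, with 1 of 13 genes (MT-ND6) above the control, where 55.0% of all tested genes were. In replicate 1, of the same set, it was 0.08, with 8 of 13 above. In replicate 3 it was 0.10, with 11 of 13 above siNC replicate 2, where 53.9% of all tested genes were. MT-ND2 had 4597 and 2785 FPKM in replicates 1 and 2, against 3902 FPKM in siNC replicate 1, and 2466 FPKM in replicate 3, against 2044 FPKM in siNC replicate 2. MT-CYB had 3576 and 2731 FPKM, against 3710 FPKM, in set 1, and 5496 FPKM, against 3632 FPKM, in set 2. MT-CO2 was again the most even, at 8033 and 7502 FPKM, against 7584 FPKM, in set 1, and 12222 FPKM, against 11455 FPKM, in set 2. Only MT-ND1 was below its control in all 3 libraries, with 3146 and 2375 FPKM, against 3154 FPKM, in set 1, and 1357 FPKM, against 1427 FPKM, in set 2.

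Over all 6 knockdown libraries the ratio to the control ran from 0.989 to 1.07 for MT-CO2 and from 0.714 to 1.97 for MT-ND2. The lowest adjusted p of any member with siWFDC21P-2, mitochondrial ones included, was 0.756 (limma). Reads per mitochondrial gene were high, from 77 to 568752, with MT-ATP8 lowest at 77 to 245 reads. The listed level of MT-ATP8 was 21.4 to 40.9 FPKM, far below that of MT-ATP6 (2077 to 3814 FPKM), with which it shares 21.1% of its coding sequence. Whether the counting lowered the value of MT-ATP8 was not tested, so this gap is uncertain as a difference in RNA level.

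**Figure D3:**
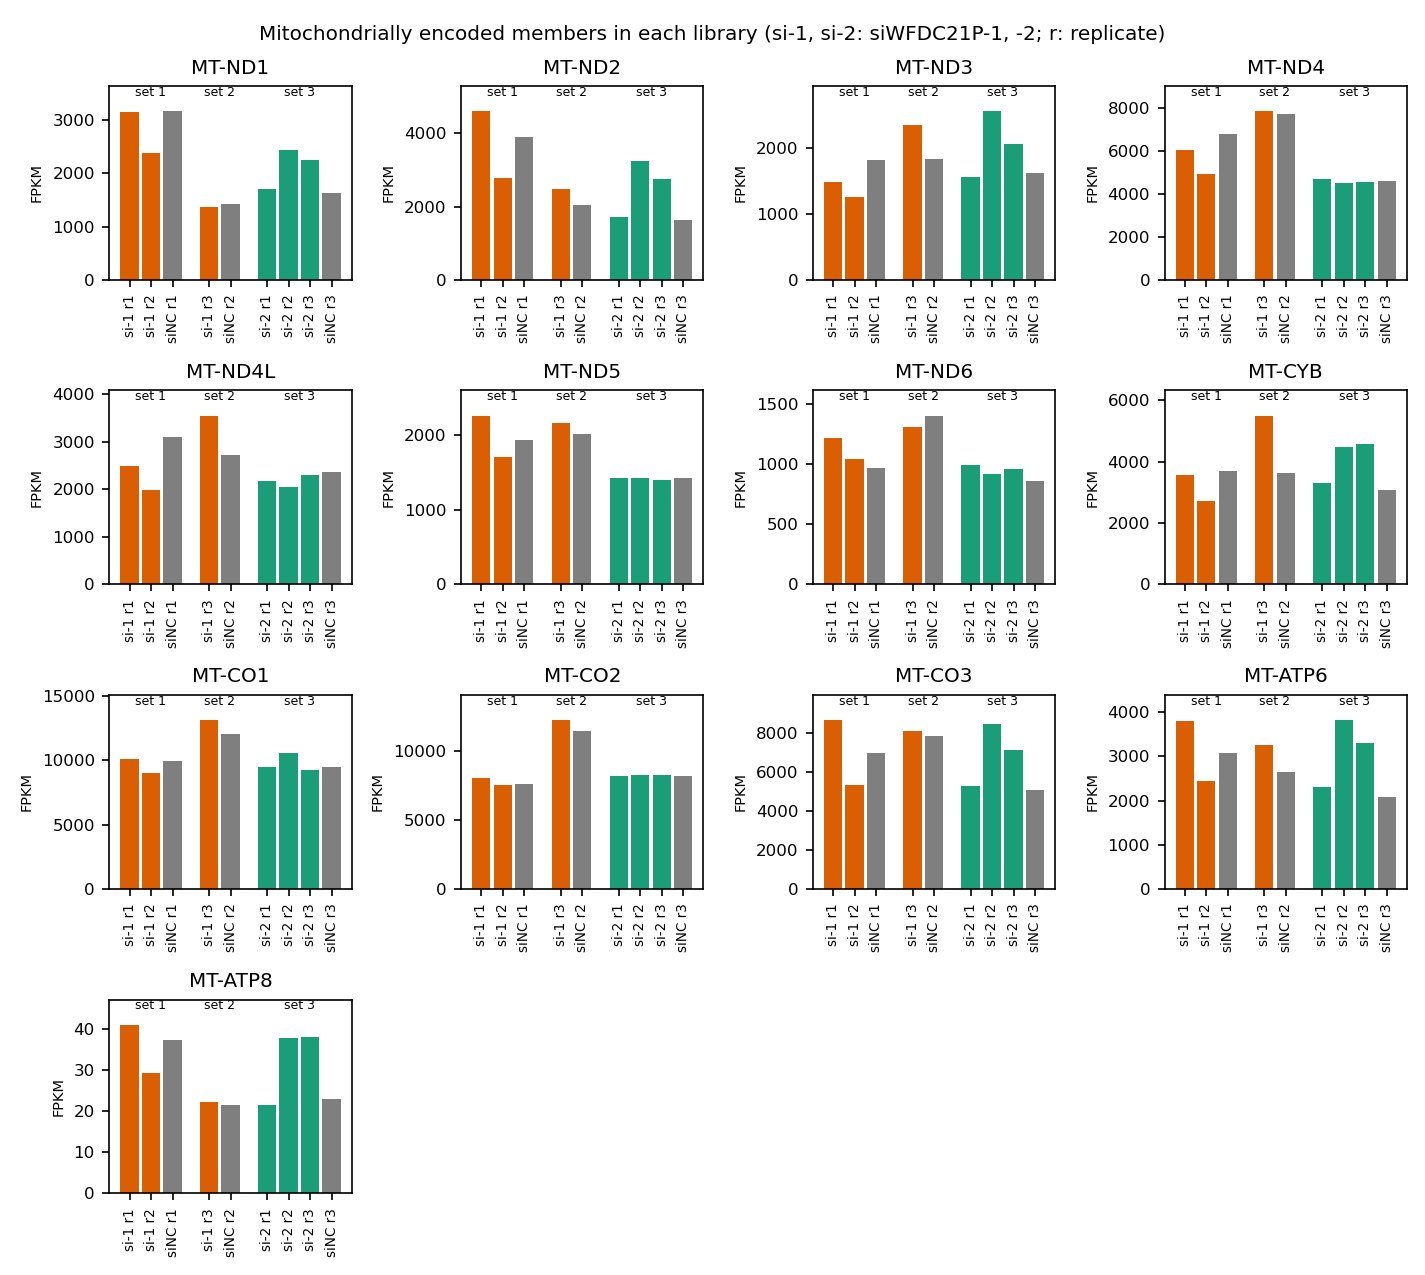
Bars give the FPKM of the 13 mitochondrially encoded members in each library, grouped by expression set, with siWFDC21P-1 (si-1, orange) and siWFDC21P-2 (si-2, green) left of the siNC library (grey) of the same set. In set 3, MT-ND2, MT-ATP6 and MT-CO3 are above the control in siWFDC21P-2 replicates 2 and 3, while MT-CO2 is between 8157 and 8226 FPKM in all 4 libraries.

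Subunit levels also differed between the expression sets. In bulk RNA, fewer cells with a transcript and less of it per cell cannot be told apart. For 28 of 74 tested nuclear members (37.8%) every library of set 3 was below every library of the other two sets, where 20.6% of all tested genes were. Every library of set 1 was the highest for 20 members (27.0%; 14.1% of all tested genes), and of set 2 for 13 (17.6%; 19.1%). Of the 13 mitochondrial members set 3 was below for 2 (15.4%), set 2 above for 4 (30.8%) and set 1 above for 0. Set 3 stood above for 3 nuclear members (4.05%; 15.1%): COX7A1, UQCRC2 and UQCRB. The sets come from the expression data themselves, so these counts are given without a test, and set 3 also coincides with a naming style of the files and with lower depth.

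The medians of the sets differed by over 4-fold for 4 members. COX7A1, the heart and muscle form of a complex IV subunit, had 3.60, 5.17 and 5.61 FPKM with siWFDC21P-2, against 3.84 FPKM in siNC replicate 3, whereas in sets 1 and 2 it had 0.412, 0.570 and 0.212 FPKM with siWFDC21P-1, against 0.238 and 0.0703 FPKM in siNC replicates 1 and 2. Its common counterpart COX7A2 had 27.0, 39.8 and 43.8 FPKM with siWFDC21P-2, against 27.3 FPKM, and 45.1, 60.7 and 36.9 FPKM with siWFDC21P-1, against 55.2 and 42.8 FPKM. COX7A2 thus stayed the more abundant form per length in every library.

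UQCR11, a small subunit of complex III, had 1.79, 2.75 and 3.22 FPKM with siWFDC21P-2, against 1.31 FPKM in siNC replicate 3, and 10.2, 11.6 and 5.99 FPKM with siWFDC21P-1, against 7.09 and 5.82 FPKM in siNC replicates 1 and 2. NDUFC2 of complex I had 0.520, 1.10 and 1.12 FPKM with siWFDC21P-2, against 0.486 FPKM, and 3.23, 2.02 and 3.62 FPKM with siWFDC21P-1, against 3.04 and 3.03 FPKM. ATP5MC2 was instead lowest in set 2, with 11.5 FPKM in siWFDC21P-1 replicate 3, against 10.2 FPKM in siNC replicate 2, while set 1 had 45.7 and 45.6 FPKM, against 33.5 FPKM. These 4 genes were picked for the gap between their highest and lowest set median, so the size of that gap is no separate result. It does not hold for every pair of sets: NDUFC2 had 2.02 to 3.62 FPKM over the libraries of sets 1 and 2.

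**Figure D4:**
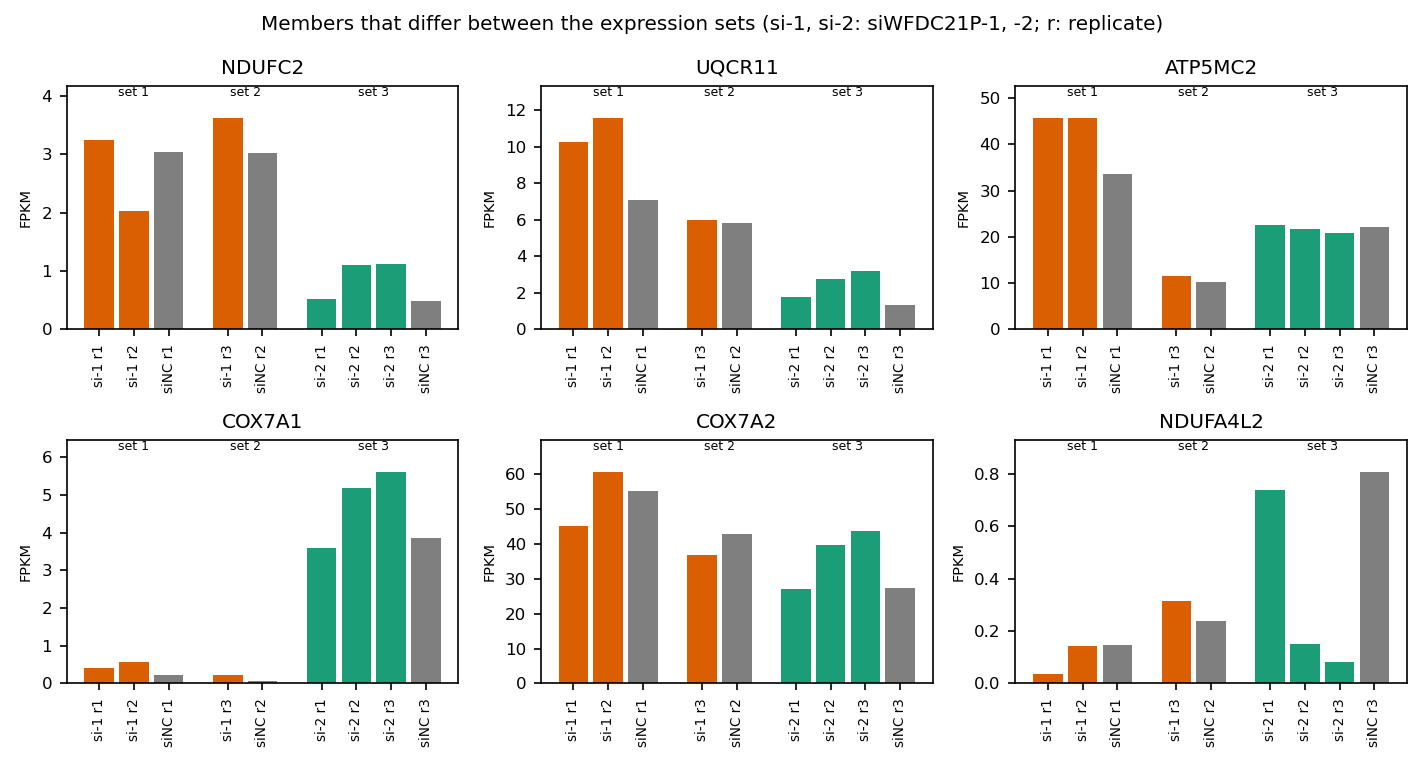
Bars give the FPKM of 4 members whose set medians differ by over 4-fold (NDUFC2, UQCR11, ATP5MC2, COX7A1), of COX7A2, the common counterpart of COX7A1, and of the isoform NDUFA4L2, in each library, with siWFDC21P-1 (si-1, orange) and siWFDC21P-2 (si-2, green) left of the siNC library (grey) of the same set. COX7A1 has 3.60 to 5.61 FPKM in set 3 and at most 0.570 FPKM in the other two sets.

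The alternative isoforms of the subunits were otherwise low. NDUFA4L2, a paralog of NDUFA4 known as a hypoxia-inducible gene, had 0.738, 0.149 and 0.0830 FPKM with siWFDC21P-2, against 0.809 FPKM in siNC replicate 3, which are 36, 7 and 4 reads against 37. The ratio to the control, scaled for depth, was 0.912 in replicate 1, 0.184 in replicate 2 and 0.103 in replicate 3, with exact 95% binomial intervals of 0.560 to 1.48, 0.0693 to 0.419 and 0.0266 to 0.285 that cover counting error only. It was under the limit for testing. In sets 1 and 2 it had 3, 12 and 25 reads with siWFDC21P-1, against 12 and 19 reads in siNC replicates 1 and 2. COX4I2, COX6B2 and COX8C had at most 0.755 FPKM, a value reached by COX8C in siWFDC21P-2 replicate 1 alone (7 reads, with 0 reads in 7 of the other libraries). UQCRHL, an intronless relative of UQCRH, had 2.59 to 3.68 FPKM. NDUFA4 itself, which the rule puts in complex I by its symbol, is now known as a subunit of complex IV. It had 36.1, 24.8 and 43.8 FPKM with siWFDC21P-1, against 37.7 and 44.8 FPKM, and 15.9, 21.2 and 17.9 FPKM with siWFDC21P-2, against 16.4 FPKM.

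Some subunits were listed at levels far below those of their partners in all 9 libraries. NDUFV2, a core iron-sulfur subunit that works with NDUFV1, had 0.236 to 2.09 FPKM over the 9 libraries, whereas NDUFV1 had 26.8 to 58.6 FPKM. NDUFV2 had 85 and 33 reads in siWFDC21P-1 replicates 1 and 2, against 166 reads in siNC replicate 1, a depth-scaled ratio of 0.518 (exact 95% binomial interval 0.394 to 0.676) and 0.196 (0.131 to 0.286), and 41 reads in replicate 3, against 62 reads in siNC replicate 2. NDUFS7, another core subunit of complex I, had 0.185 to 0.688 FPKM, and NDUFA9, an accessory subunit, had 0.171 to 0.872 FPKM. The low values moved with the share of a gene's coding exons covered by exons of other annotated genes on either strand. The 63 nuclear members with no such overlap had a median of 33.8 FPKM, the 6 with up to 25% had 11.1 FPKM, and the 19 with over 25% had 0.939 FPKM. Of the 14 members that were not tested, 10 were in the last group, NDUFV2 (84.7% covered), NDUFS7 (48.5%) and NDUFA9 (67.9%) among them. The limit of 25% was chosen after the values had been seen. Whether counting left out reads in shared exons was not tested. UQCR11 (100% covered), NDUFC2 (76.9%), ATP5MG (56.5%) and COX8A (55.1%) belong to the same group, so their values are uncertain. Further, 50 of 88 nuclear members have at least 1 named pseudogene, up to 17 for COX6C, with which reads could be shared.

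**Figure D5:**
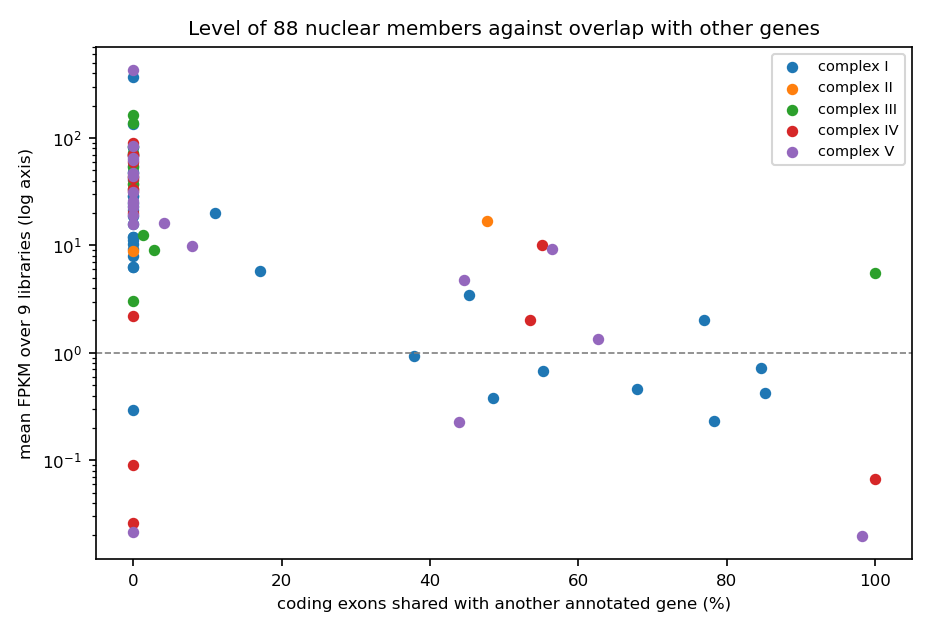
Each point is 1 of the 88 nuclear members, with the share of its coding exons that other annotated genes also cover on the horizontal axis (percent) and its mean FPKM over the 9 libraries on the vertical log axis, coloured by complex; the dashed line marks 1 FPKM, the limit for testing. Members with over 25% overlap have a median of 0.939 FPKM and those without any have a median of 33.8 FPKM.

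When siWFDC21P-2 replicate 1 was left out, 6 members passed an adjusted p of 0.05, all of them higher: NDUFB6 (log2 fold change 1.17 ± 0.17, SE; adjusted p = 0.0201, limma), ATP5PF (0.86), COX7B (0.84), NDUFA8 (0.76), UQCR10 (0.96) and ATP5MC3 (0.79). In that fit 902 of 13014 genes passed (6.93%; 4.32% higher and 2.61% lower), so 6 of 87 is close to the share of all genes. In replicates 2 and 3, 63 of 74 nuclear members and 9 of 13 mitochondrial members were above siNC replicate 3 in both, where 46.2% of all tested genes were, and 5 nuclear and 3 mitochondrial members were below it in both, where 39.1% were.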

How the data were processed

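The authors deposited 1 file per library with the FPKM of each Ensembl gene. Per the submitters' processing notes, HISAT2 2.1.0, Bowtie2 2.2.3, HTSeq 0.6.0 and hg38 were used, without roles. Strandedness is not given in the sources used here. FPKM multiplied by GENCODE release 29 exon length gave whole reads for 92.67% of genes and for 97 of 101 members, and the depth of each library. The tolerance was 0.02 and grew with the number of reads at high counts. For genes with the most reads, such as MT-CO1, the check of whole reads is therefore weak.

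The 13014 genes whose mean FPKM was 1 or more were put on the scale log2(FPKM + 1) and tested with limma (version 3.58.1; R 4.3.3; trended empirical Bayes, Benjamini-Hochberg over all of them), the model holding group and expression set. The pseudocount of 1 understates changes of low genes. Sets came from average-linkage clustering of non-members (height 0.15 on 1 minus Pearson r). siWFDC21P-2 is thereby compared with siNC replicate 3 alone. The spread in the model comes from knockdown libraries of the same set and from the siWFDC21P-1 difference not being the same in sets 1 and 2. No libraries were duplicates. In simulated data a log2 change of 1 was called in 43% (siWFDC21P-1) and 24% (siWFDC21P-2) of changed genes, and a change of 2 in 82% and 67%.

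Members and lists were chosen with earlier results of these data known. Named were the MT- genes, isoforms, up to 2 members per complex, siRNA and direction with all 3 libraries to the same side of the control, the 5 largest over 6 libraries, members with sets over 4-fold apart, and 2 genes per list and siRNA with the smallest p. NDUFS4, NDUFA5, NDUFB5, NDUFA4, ATP5MC3, ATP5PD, ATP5PO, COX7A2, CYC1, COX5B and the overlapped genes were added after their values were seen. The values of 1 member are not reported here. Promoters are RefSeq's (GRCh38.p14). Intervals cover counting error only.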

Additional observations from a re-analysis of the deposited data

Results flagged for a closer look

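For 6 members all 3 siWFDC21P-1 libraries lay below and all 3 siWFDC21P-2 libraries above the siNC of their set. Of all tested genes 20.7% were lower in all 3 siWFDC21P-1 libraries and 26.9% higher in all 3 siWFDC21P-2 libraries. The share of all tested genes that did both was not counted, so the 6 members are not shown to be unusual. The difference between the fitted log2 fold changes, siWFDC21P-1 minus siWFDC21P-2, was -0.522 for MT-ND1, -0.508 for NDUFB11, -0.511 for NDUFS1, -0.279 for UQCRHL, -0.372 for COX4I1 and -0.644 for COX6B1. In limma's test of that difference the adjusted p was 0.83 for MT-ND1, NDUFB11, NDUFS1, COX4I1 and COX6B1 and 0.845 for UQCRHL, so none passed. With the siRNAs in separate sets, the siRNA and the set cannot be told apart here.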

How the results depend on the processing

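No member passed for siWFDC21P-1 in any fit; for siWFDC21P-2, 0 to 6 passed over the fits that leave out 1 library. Without a covariate the nuclear medians were 0.274 (siWFDC21P-1) and -0.116 (siWFDC21P-2), the second of opposite sign, and the mitochondrial median with siWFDC21P-2 was 0.0653; the sets are then mixed. Median-of-ratios scaling gave 13 higher and 19 lower with siWFDC21P-1, and without both libraries of set 2, an alternative chosen after seeing the data, 42 were higher. For siWFDC21P-2 9 were lower with no filter on low values and 1 when rescaled without the MT- genes. Leaving out 1 library at a time gave 22 to 42 higher and 16 to 50 lower with siWFDC21P-1, and 52 to 72 higher and 4 to 8 lower with siWFDC21P-2, partly because fewer libraries had to lie on one side. The medians then ran from -0.0895 to 0.0945 (nuclear) and -0.105 to 0.103 (mitochondrial) with siWFDC21P-1, and from 0.208 to 0.395 and 0.183 to 0.507 with siWFDC21P-2. Without siNC replicate 3 there is no value for siWFDC21P-2. Same-numbered libraries of different groups did not deviate together throughout, with r from -0.683 to 0.667 over 9 pairs and over 0.1 in 2. The highest r was that of siNC replicate 1 with siWFDC21P-1 replicate 1, which share a set. The lowest was that of siNC replicate 2 with siWFDC21P-1 replicate 2, which do not. With the replicate number as a block, 0 members passed, and the medians were -0.016 and -0.0519 (siWFDC21P-1) and 0.353 and 0.477 (siWFDC21P-2), nuclear and mitochondrial. The other 134 recomputed summary values moved by less than the spread between libraries or under 1.5 times. Of values for single named genes, 1151 stayed not called, as in the main fit, and 5 passed only without siWFDC21P-2 replicate 1. Some settings leave out a library that a fold change does not use. Of 68 fold changes per setting, 21 turned sign without a covariate and at most 7 otherwise. Without both libraries of set 2 there were 34 fold changes, of which 6 turned, and without siNC replicate 3 there were 34, of which 0 turned. Depth limits members of a few reads, such as the isoforms.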

Other observations

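The genes that build and serve the complexes were described by fixed lists, and none of their members passed for either siRNA. The 9 tested assembly factors of complexes II and III had a median log2 fold change of 0.44 with siWFDC21P-1 and -0.05 with siWFDC21P-2, against 0.03 and 0.02 over all tested genes. With siWFDC21P-1, 6 of them were higher in all 3 libraries and 1 lower, where 27.9% of all tested genes were higher and 20.7% lower. Among the higher ones UQCC1, which supports cytochrome b synthesis, had 9.29, 10.1 and 9.61 FPKM, against 5.52 and 6.04 FPKM in siNC replicates 1 and 2. The 16 complex I factors had medians of 0.21 and 0.06, the 21 complex IV factors 0.19 and 0.22, and the 4 complex V factors 0.18 and 0.06. Of the complex IV factors 6 of 21 were above the control in all 6 knockdown libraries (10.8% of all tested genes), among them the copper chaperone COX17, at 7.82, 8.18 and 20.5 FPKM with siWFDC21P-1, against 5.89 and 13.9 FPKM in siNC replicates 1 and 2, and at 2.78, 2.86 and 3.64 FPKM with siWFDC21P-2, against 1.81 FPKM in siNC replicate 3.

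Of 74 mitochondrial ribosomal proteins, 26 were higher and 4 lower in all 3 siWFDC21P-1 libraries, and 19 higher and 9 lower with siWFDC21P-2. Of all tested genes 27.9% and 26.9% were higher and 20.7% and 26.0% lower. The medians of the ribosomal proteins were 0.12 and 0.08. MRPS34 of the small subunit had 167, 146 and 91.4 FPKM with siWFDC21P-1, against 61.1 and 70.7 FPKM in siNC replicates 1 and 2. The electron and nucleotide carriers had medians of 0.18 and 0.12, and the nuclear regulators of respiratory genes 0.19 and -0.06. Genes of mitochondrial transcription and RNA stability had medians of 0.10 and -0.02. Among them TFAM, which starts mitochondrial transcription and packs the DNA, had 12.8, 6.47 and 5.03 FPKM with siWFDC21P-2, against 17.2 FPKM in siNC replicate 3 (log2 fold change -1.10 ± 0.63, SE; limma adjusted p = 0.756), and 21.3, 6.71 and 20.4 FPKM with siWFDC21P-1, against 24.7 and 25.5 FPKM in siNC replicates 1 and 2. The isoform list had 2 tested genes, with medians of 0.07 and 0.22.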
